A study of Mus musculus with 5 samples.

Results

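The immune checkpoint ligands described here are 10 genes whose proteins sit on, or are released from, a cell and bind receptors of T cells and natural killer cells: Cd274, Pdcd1lg2, Cd80, Cd86, Cd276, Vtcn1, Nectin2, Pvr, Lgals9 and Tnfsf9. They were chosen by name, 10 of the 18193 genes with a probe set of their own. Every probe set (a group of array probes summarised as 1 value) annotated with only 1 of these symbols was taken, which gave 21 of the 45037 probe sets of the table. Pvr had 7 of them, Cd80 had 4, Cd86 and Nectin2 had 2 each, and the other 6 genes had 1 each. Expression was measured on Affymetrix mouse arrays in tumour cells taken from mouse prostates with beads that the labels spell Epicam, read here as EpCAM, 1 array per mouse. The 2 nTKO mice, aged 31.43 weeks (nTKO 1) and 16 weeks (nTKO 2), carried floxed alleles that include Smad4 and floxed Pygo2. The 3 nDKO mice, aged 15.86 (nDKO 1), 10.71 (nDKO 2) and 10.71 weeks (nDKO 3), carried the same floxed alleles except that of Pygo2. All 5 mice were C57BL/6, and in both genotypes deletion was driven by the Probasin promoter, which is active in prostate epithelium, so nDKO is not a wild type. Pygo2 works with beta-catenin in Wnt signalling, and the comparison asks what its loss adds.

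These ligands tune lymphocytes at the point of contact. PD-L1, the product of Cd274, and PD-L2, the product of Pdcd1lg2, bind PD-1 and restrain T cells, and PD-L1 is induced by interferon-gamma through JAK, STAT and IRF factors in tumour cells and in myeloid cells. Cd80 and Cd86 are mainly products of antigen-presenting cells and bind both the activating CD28 and the inhibitory CTLA-4. The nectin family ligands of Nectin2 and Pvr bind the activating DNAM-1 and inhibitory receptors such as TIGIT.

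Epithelial genes were bright and leukocyte genes were measurable on every array. The epithelial surface gene Epcam had a log2 signal of 13.24 and 13.41 in nTKO cells, against 12.94, 13.48 and 13.35 in nDKO cells, and Pygo2 had 7.30 and 6.35 in nTKO cells, against 8.65, 8.62 and 8.72 in nDKO cells. Smad4, floxed in both genotypes, had 9.76 and 10.37 in nTKO cells, against 9.63, 9.88 and 9.88 in nDKO cells. Whether its probes lie in the deleted part is not given in the sources used here, so these values do not check its deletion. Of the prostate genes looked up after the data were seen, Hoxb13 lay between 8.86 and 10.29, and the secretory gene Pbsn was at 8.15 in nTKO 2 and at 3.33 to 5.43 on the other arrays. Arrays nTKO 1 and nDKO 1 stood apart from the rest, with the lowest correlations over probe sets (0.987 to 0.991) and with high squamous genes. In bulk samples such as these, fewer cells of a type and less RNA per cell cannot be told apart. As a guide to dim signals, 17 genes of other organs, such as insulin and rhodopsin, were read on each array, and the brightest of them lay between 5.90 and 6.04. Of the 21 ligand probe sets, 9 were above that gene on every array, 2 on some arrays (Cd274 and Pvr 1450295_s_at) and 10 on no array. Of all probe sets, 59.6% were above it on no array. The 10 dim ones were the sole probe sets of Pdcd1lg2 and Tnfsf9, all of Cd80 and Cd86, and 2 of Pvr, and a signal in this range may come from little or no transcript.

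None of the ligands passed the test between genotypes. In a limma fit on all probe sets, 0 of the 21 had a Benjamini-Hochberg adjusted p under 0.05 (percent called over the table: 0), and their adjusted p lay between 0.799 and 0.993, where the smallest of the whole table was 0.799. At an unadjusted p under 0.05, 1 ligand probe set was counted, a Pvr probe set, which is 4.76% against 3.80% of all probe sets. The 2 genotypes did not overlap for 4 of the 21, against 12.2% of all probe sets. Higher on both nTKO arrays than on every nDKO array were 1 probe set of Nectin2 and that of Tnfsf9, against 7.02% of the table, and lower were that of Cd276 and 1 of Pvr, against 5.17%. With counts this small, the shares differ from the background by 1 or 2 probe sets. The median log2 fold change (nTKO minus nDKO) of the 21 was 0.05, beside 0.017 over the table, and 14 were above 0, against 56.0% of all probe sets. None reached a size of 1, as 0.342% of all probe sets did.

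**Figure D1:**
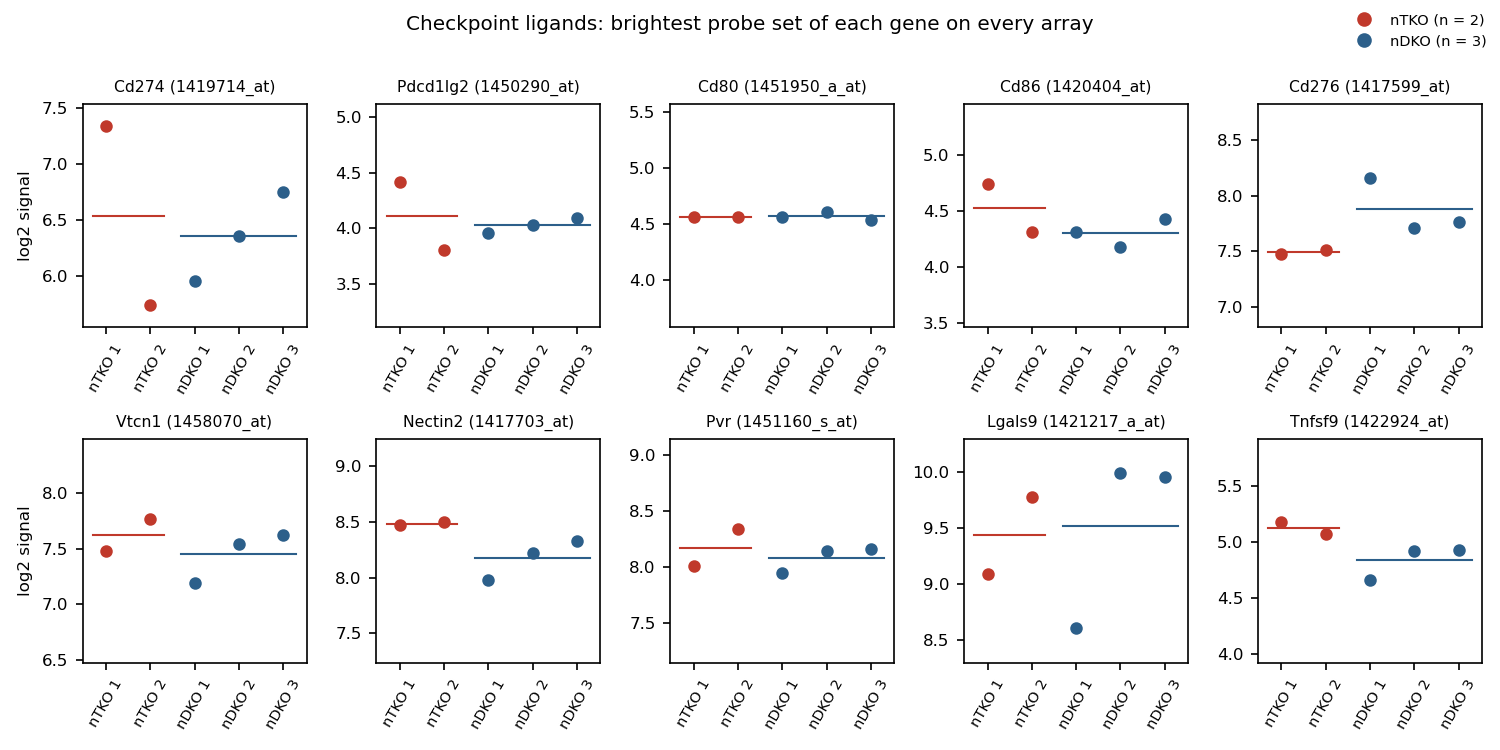
Log2 signal (vertical axis, 2 log2 units high in every panel) of the brightest probe set of each checkpoint ligand on the 5 arrays (horizontal axis), with nTKO in red and nDKO in blue and lines at the group means. The groups are apart in the panels of Cd276, Nectin2 and Tnfsf9, while Cd274 and Lgals9 span 1.60 and 1.39 over the arrays.

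Single mice of a genotype often lay further apart than the genotype means, among the ligands as in the whole table. For 14 of the 21 probe sets the gap between the 2 nTKO mice was larger than the difference between genotypes, against 60.1% of all probe sets, and for 17 the range within the 3 nDKO mice was, against 70.2%. A range of at least 1 log2 unit over the 5 arrays was found for 3 ligand probe sets, those of Cd274, Lgals9 and 1 of Pvr, against 5.61% of all probe sets. nTKO 1, the oldest mouse, was the highest of the 5 arrays for 5 of the 21, against 27.6% of all probe sets. They were those of Cd274, Pdcd1lg2, Cd86 (both) and Tnfsf9, all but Cd274 dim on every array. Of the 17 genes of other organs read as a guide to dim signals, 8 were also highest in nTKO 1.

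**Figure D2:**
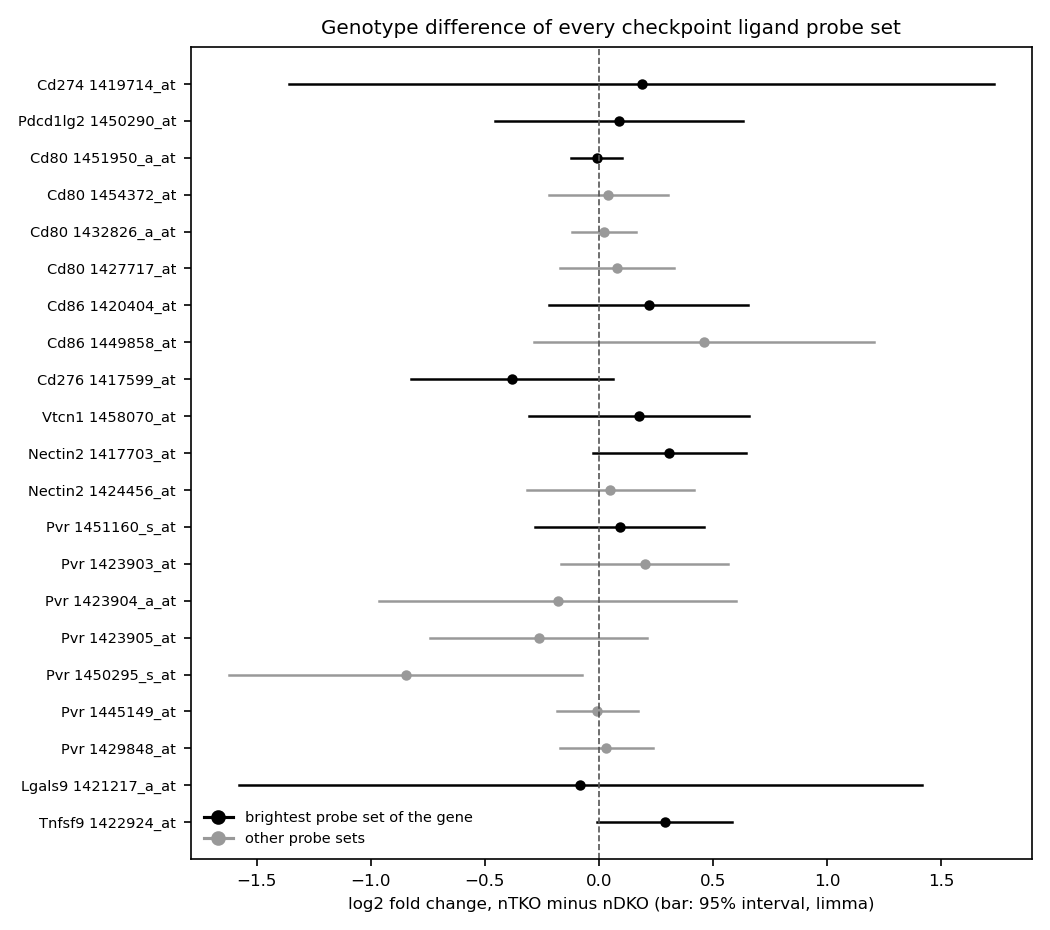
Log2 fold change of nTKO over nDKO (horizontal axis, point) with its 95% limma interval (bar) for all 21 ligand probe sets, named on the vertical axis. Of the intervals, that of Pvr 1450295_s_at lies below 0, and those of Nectin2 1417703_at and Tnfsf9 reach down to -0.027 and -0.009.

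PD-L1, the ligand of PD-1, spanned 1.60 log2 units between mice, and its genotypes overlapped. Cd274 (probe set 1419714_at) had a log2 signal of 7.34 and 5.74 in nTKO cells, against 5.95, 6.36 and 6.75 in nDKO cells. Its highest value was in nTKO 1. The value in nTKO 2 was below the brightest gene of other organs on that array (6.04), and the value in nDKO 1 was barely above it (5.90), so the order of these low values cannot be read. The means were 6.54 ± 1.13 (SD, n = 2) in nTKO and 6.35 ± 0.40 (SD, n = 3) in nDKO cells, a log2 fold change of 0.19 with a 95% interval of -1.36 to 1.73 (limma adjusted p = 0.949). On a linear scale the interval runs from 0.39-fold to 3.32-fold, so these arrays would not tell a loss by that factor from a gain. The sign depended on which array was left out: the log2 fold change was -0.61 without nTKO 1, 0.99 without nTKO 2 and -0.015 without nDKO 1. Adding log2 age to the model gave -0.52.

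PD-L2 gave a dim signal on every array. Pdcd1lg2 (1450290_at), the next protein-coding gene after Cd274 on chromosome 19 in the RefSeq table of GRCm38.p6, measured 4.42 and 3.81 in nTKO cells, against 3.96, 4.03 and 4.09 in nDKO cells. Both PD-1 ligands thus had their highest value in nTKO 1, as did 8 of the 17 genes of other organs. The log2 fold change of Pdcd1lg2 was 0.088 (SE 0.20, limma adjusted p = 0.920), and it was -0.22 without nTKO 1. All of its values were below the brightest gene of other organs on every array.

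Some leukocyte genes were highest on the array on which Cd274 was highest, and others were not. Ptprc, which encodes the pan-leukocyte antigen CD45, measured 8.84 and 6.87 in nTKO cells, against 7.46, 6.87 and 8.33 in nDKO cells. It was highest in nTKO 1 and next highest in nDKO 3, as Cd274 was. Of the 6 leukocyte markers, 3 were highest in nTKO 1 (Ptprc, Cd53 and Lcp1), 2 in nDKO 3 (Cd52 and Coro1a) and 1 in nDKO 1 (Laptm5). Of the 10 macrophage markers, 1 was highest in nTKO 1 (Cd14) and 9 in nDKO 3, and of the 7 measured neutrophil markers, 6 were highest in nTKO 1 and 1 in nDKO 1. All 6 leukocyte markers were measured and were above the dim range on every array, with a log2 summed signal of 11.58 and 10.46 in nTKO cells, against 10.35 to 11.55 in nDKO cells. The 10 macrophage markers had a log2 summed signal of 12.40 and 11.82 in nTKO cells, against 11.78 to 12.49 in nDKO cells. The 7 measured neutrophil markers had 14.91 and 13.19, against 13.78 to 14.15. Ltf alone measured 13.91 and 13.07 in nTKO cells, against 13.92, 13.65 and 13.48 in nDKO cells, so this 1 gene makes up much of the neutrophil sums. The 8 measured T and natural killer cell markers were all within the dim range on every array, Cd3e among them at 5.51 to 5.62. The part of leukocytes in the level of Cd274 was not tested.

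The genes whose values, centred on their own mean over the 5 arrays, came nearest to those of Cd274 were Clec7a (root mean square difference 0.116 on the log2 scale), Dock10 (0.122), Slc15a3 (0.128), Hcar2 (0.135) and Srgn (0.150). Clec7a, a fungal pattern receptor of myeloid cells, measured 8.35 and 6.74 in nTKO cells, against 7.0, 7.39 and 8.06 in nDKO cells. Srgn, the core protein of a granule proteoglycan of blood cells, measured 12.70 and 11.30 in nTKO cells, against 11.69, 11.86 and 12.07 in nDKO cells. Both, like Cd274, were highest in nTKO 1 and next highest in nDKO 3. They were chosen for values near those of Cd274, so the shared order follows from the choice and is no separate result.

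**Figure D3:**
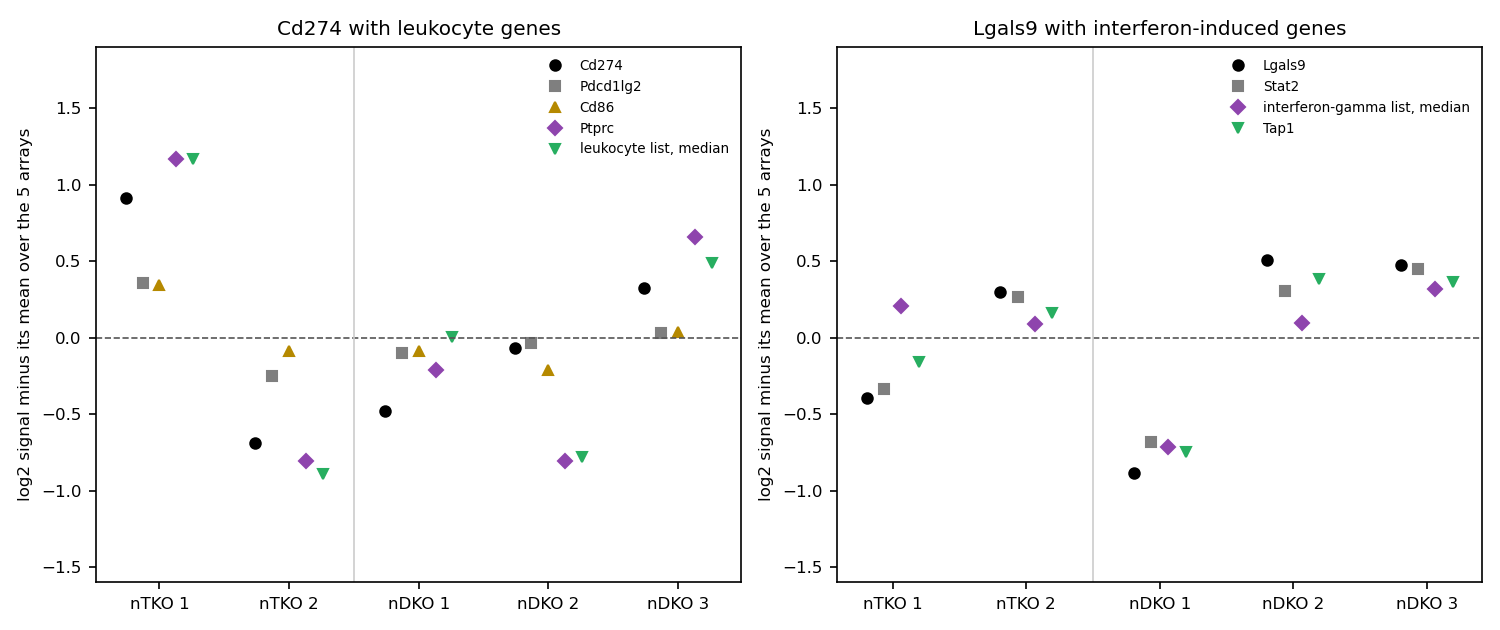
Log2 signal of single genes, and of the median of 2 gene lists, each minus its own mean over the 5 arrays (vertical axis), by array (horizontal axis). On the left, Cd274, Pdcd1lg2, Cd86, Ptprc and the median of the leukocyte list are highest in nTKO 1. On the right, Lgals9, the interferon-induced gene Stat2, Tap1 and the interferon-gamma list are lowest in nDKO 1. In nTKO 1 the list is above its mean while Lgals9 is below. Stat2 was chosen for its likeness to Lgals9.

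Cd80 and Cd86, the ligands shared by CD28 and CTLA-4, gave dim signals throughout. The brightest Cd80 probe set, 1451950_a_at, measured 4.56 on both nTKO arrays, against 4.56, 4.61 and 4.54 in nDKO cells, and the other 3 lay between 3.47 and 3.98. Their log2 fold changes ran from -0.01 to 0.08. The brightest one spanned 0.07 over the 5 mice, less than 91.9% of all probe sets did, and no level of Cd80 can be read from signals in the dim range.

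Cd86 was high on 1 array. Probe set 1449858_at measured 4.90 and 4.05 in nTKO cells, against 3.94, 4.05 and 4.05 in nDKO cells, and 1420404_at measured 4.74 and 4.31, against 4.31, 4.18 and 4.43. Both probe sets were highest in nTKO 1 and lay within the nDKO range in nTKO 2. Both are dim, and 8 of the 17 genes of other organs were also highest in nTKO 1. The log2 fold changes were 0.46 (SE 0.27) and 0.22 (SE 0.16), both with a limma adjusted p of 0.799. Without nTKO 1 they were 0.037 and 0.0033. Itgax, a marker of dendritic cells and macrophages, showed its highest value on the same array, at 6.81 in nTKO 1 and 5.89 in nTKO 2, against 5.94, 6.08 and 6.01 in nDKO cells. Of the 7 measured dendritic cell markers, Itgax included, 4 were highest in nTKO 1, 1 in nTKO 2 and 2 in nDKO 3. Of the same 7, 4 were within the dim range on every array and 1 was above it on every array. Itgax in nTKO 2 was below the brightest gene of other organs there (6.04). By contrast, 9 of the 10 macrophage markers were highest in nDKO 3. The part of such cells in the Cd86 signal was not tested.

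Of the B7 family members whose receptors are less settled, Cd276 was lower in both nTKO mice. Cd276 (1417599_at), which encodes B7-H3, a surface protein found on many carcinomas, measured 7.48 and 7.51 in nTKO cells, against 8.16, 7.71 and 7.76 in nDKO cells. The nTKO values lay 0.20 below the lowest nDKO value. The log2 fold change was -0.38 (SE 0.16, 95% interval -0.83 to 0.063), or 0.768-fold, with a limma adjusted p of 0.799. The sign was negative in all 15 alternatives. Values lay between -0.65 (nTKO 2 minus nDKO 1, the pair of like age) and -0.23 (without both nDKO 1 and nTKO 1). Because the groups did not overlap, leaving out arrays could not turn the sign. Alternatives that change only the variance model or the probe sets kept could not turn it either. Part of the size rests on nDKO 1, the highest array, since the value was -0.24 without it.

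Vtcn1, which encodes the T cell inhibitor B7-H4 (1458070_at), overlapped between genotypes. It measured 7.48 and 7.77 in nTKO cells, against 7.19, 7.54 and 7.62 in nDKO cells, with its lowest value in nDKO 1 and its highest in nTKO 2. The log2 fold change was 0.18 (SE 0.18, limma adjusted p = 0.827), and 0.045 without nDKO 1. Adding log2 age to the model gave 0.54.

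Nectin2, a nectin bound by DNAM-1 and PVRIG, was higher in both nTKO mice by 1 of its 2 probe sets. Probe set 1417703_at measured 8.47 and 8.50 in nTKO cells, against 7.98, 8.22 and 8.33 in nDKO cells, with a gap of 0.14 between the groups. The log2 fold change was 0.31 (SE 0.12, 95% interval -0.027 to 0.64), or 1.24-fold, with a limma adjusted p of 0.799. It was positive in all 15 alternatives, between 0.21 and 0.52, though with groups apart, leaving out arrays could not turn the sign. Nor could alternatives that change only the variance model or the probe sets kept. The other probe set, 1424456_at, measured 7.60 and 7.92 in nTKO cells, against 7.59, 7.71 and 7.83 in nDKO cells, so that nTKO 1 lay beside the lowest nDKO array. Its log2 fold change was 0.05 (SE 0.14), and the 2 probe sets therefore do not give 1 answer for the gene.

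Pvr, which encodes the poliovirus receptor homologue and is a ligand of TIGIT, DNAM-1 and CD96, was read by 7 probe sets that disagreed in sign. Of these, 3 had a positive and 4 a negative log2 fold change, from 0.20 (1423903_at) to -0.85 (1450295_s_at). The brightest, 1451160_s_at, measured 8.01 and 8.34 in nTKO cells, against 7.95, 8.14 and 8.16 in nDKO cells (a difference of 0.092, SE 0.14, limma adjusted p = 0.868). By contrast, 1450295_s_at measured 5.10 and 5.91 in nTKO cells, against 6.14, 6.46 and 6.46 in nDKO cells. This is the 1 ligand probe set with an unadjusted p under 0.05 (limma's adjusted p was 0.799), with a log2 difference of -0.85 (SE 0.28, 95% interval -1.62 to -0.073). Both nTKO values were below the brightest gene of other organs on their arrays (5.92 and 6.04), and the 3 nDKO values were above it, so the size of the difference is uncertain. Leaving out nTKO 2 gave -1.25, leaving out nTKO 1 gave -0.44, and adding log2 age to the model gave -0.19.

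Within nTKO, the mouse nTKO 1 was lower than nTKO 2 on 6 of the 7 Pvr probe sets. The gap was -0.81 for 1450295_s_at and 1423904_a_at, -0.50 for 1423905_at, -0.33 for 1451160_s_at, -0.30 for 1423903_at and -0.21 for the dim 1429848_at, and the dim 1445149_at measured 4.38 in both. Probe sets whose names end in _s_at can also match transcripts of related genes, so the 2 of that kind, the brightest and the one with the largest difference, are less certain as readings of Pvr. The probe sets of Pvr share their target, and their number adds nothing to the 5 mice.

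**Figure D4:**
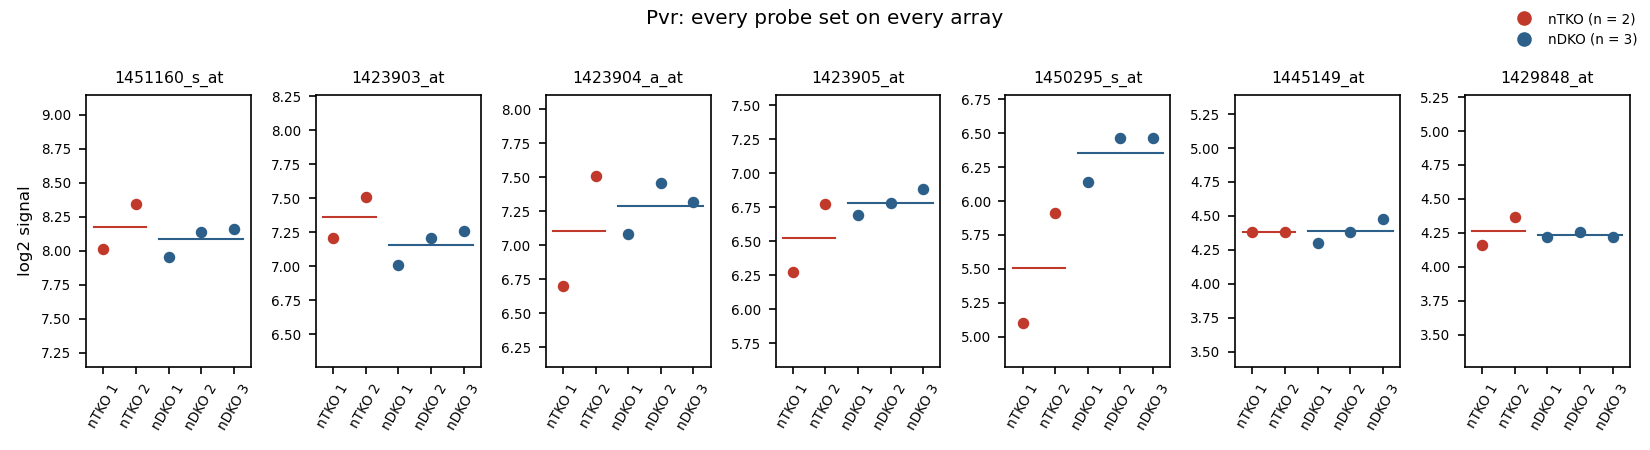
Log2 signal (vertical axis, 2 log2 units high in every panel) of the 7 Pvr probe sets, brightest on the left, on the 5 arrays (horizontal axis), with nTKO in red and nDKO in blue and lines at the group means. In the panel of 1450295_s_at both nTKO values, 5.10 and 5.91, lie below the nDKO values, and in the other 6 panels the groups overlap.

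Lgals9, which encodes galectin-9, a glycan-binding ligand of TIM-3, varied as widely within nDKO as over all arrays. Probe set 1421217_a_at measured 9.09 and 9.78 in nTKO cells, against 8.60, 9.99 and 9.96 in nDKO cells. It was lowest in nDKO 1 and next lowest in nTKO 1, the 2 arrays with high squamous genes, whose list had an array median of 9.66 in nTKO 1 and 5.22 in nTKO 2, against 10.7 in nDKO 1 and 6.0 to 6.1 in nDKO 2 and nDKO 3. The highest array exceeded the lowest 2.62-fold, and both ends were nDKO. The log2 fold change between genotypes was -0.082 (SE 0.55, 95% interval -1.58 to 1.42, limma adjusted p = 0.985). Leaving out nDKO 1 gave -0.54 and leaving out nTKO 1 gave 0.26, while nTKO 2 minus nDKO 1, the pair of like age, gave 1.18.

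The genes nearest to Lgals9 over the 5 arrays were Wnk2 (root mean square difference 0.085), Zbp1 (0.118), Bmyc (0.129), Stat2 (0.131) and Tap2 (0.139). Zbp1 is an interferon-induced nucleic acid sensor, Stat2 a subunit of the factor that type I interferon activates, and Tap2 1 chain of the peptide transporter for MHC class I. Stat2 measured 8.18 and 8.78 in nTKO cells, against 7.83, 8.82 and 8.96 in nDKO cells. That places nDKO 1 lowest and nTKO 1 next, as for Lgals9, which follows from choosing genes by their likeness to it.

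The promoter sequences of Lgals9 and Cd274 are shown because both genes are known targets of interferon and both spanned at least 1 log2 unit between mice. They are the 250 bases before the start site in RefSeq on GRCm38.p6, 5′ to 3′ along the gene, at chr11:78984925-78985174 (minus strand) and chr19:29367188-29367437 (plus strand), with motif matches in capitals.
Lgals9: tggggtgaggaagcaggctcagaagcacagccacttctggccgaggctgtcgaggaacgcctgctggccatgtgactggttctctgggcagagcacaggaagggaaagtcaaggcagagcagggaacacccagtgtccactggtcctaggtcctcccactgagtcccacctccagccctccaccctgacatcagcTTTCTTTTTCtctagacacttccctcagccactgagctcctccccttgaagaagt
Cd274: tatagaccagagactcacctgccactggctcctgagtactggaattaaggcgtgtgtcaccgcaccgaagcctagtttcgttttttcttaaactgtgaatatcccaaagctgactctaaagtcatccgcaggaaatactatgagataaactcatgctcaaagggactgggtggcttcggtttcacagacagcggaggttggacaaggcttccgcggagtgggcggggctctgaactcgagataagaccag
The Lgals9 stretch holds 1 match to the core of the interferon-stimulated response element (GAAANNGAAA, searched on both strands), which starts 55 bases before the start site and lies on the opposite strand. A further match, TTTCTGTTTC, starts at base 16 after it. That motif was found in 3.44% of 32851 promoters of 300 bases (from 250 before to 50 after the start site), in Lgals9 and in none of the other 6 ligands with a promoter in the table (Cd274, Cd276, Cd80, Nectin2, Pdcd1lg2 and Vtcn1). The gamma-activated site (TTCNNNGAA, 8.30% of promoters) and an NF-kB motif (GGGANTTTCC, 0.411%) had no match in those 7 promoters, and the TATA box (TATAAA, 13.6%) had 1, in Cd80 after its start site. A match is a run of letters and not a measured site, and the lack of one says nothing on whether a factor acts on the gene.

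Tnfsf9, which encodes the ligand of the T cell co-stimulator 4-1BB, was higher in both nTKO mice at a dim signal. Probe set 1422924_at measured 5.18 and 5.07 in nTKO cells, against 4.66, 4.92 and 4.93 in nDKO cells, with a gap of 0.14 between the groups. The log2 fold change was 0.29 (SE 0.11, 95% interval -0.009 to 0.59) with a limma adjusted p of 0.799. It was positive in all 14 alternatives that held the probe set, between 0.145 and 0.41. Leaving out arrays could not turn the sign of groups that are apart, nor could a change of only the variance model or the probe sets kept. Of the 17 genes of other organs, 4 were brighter than Tnfsf9 on its brightest array, so a difference of this size lies within signals that need not come from transcript.

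**Figure D5:**
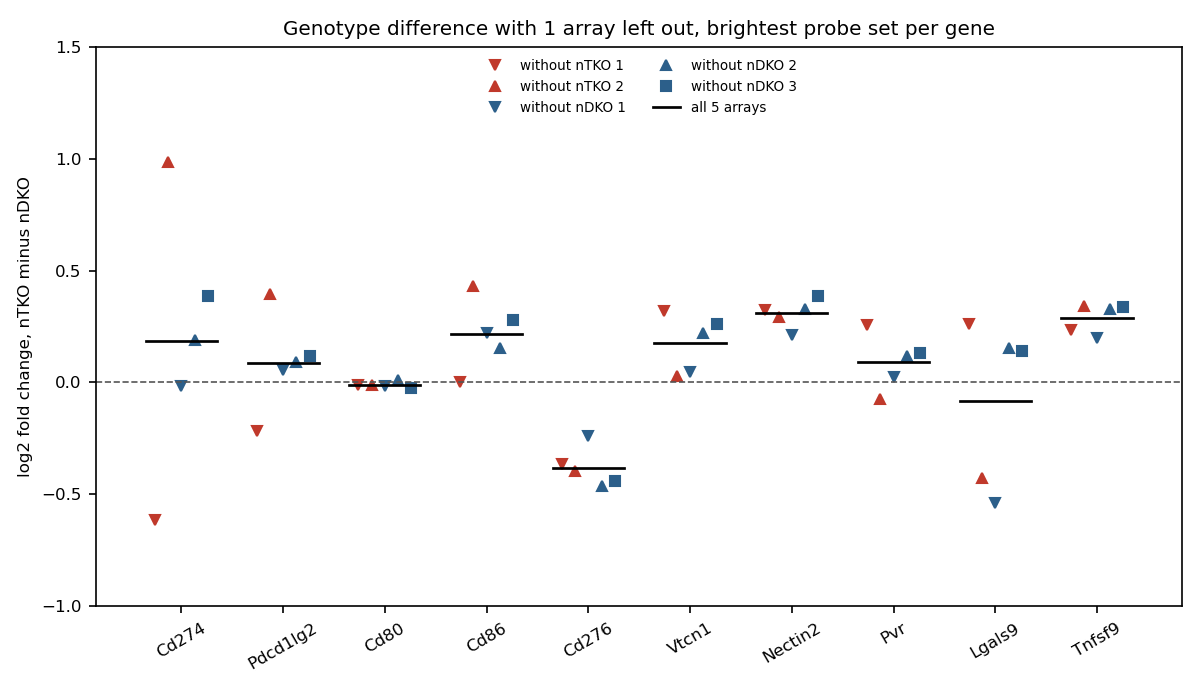
Log2 fold change of nTKO over nDKO (vertical axis) for the brightest probe set of each ligand (horizontal axis), with all 5 arrays (line) and with 1 array left out (symbols). Cd276 stays below 0 and Cd86 (lowest at 0.0033), Nectin2, Tnfsf9 and Vtcn1 above 0. For Cd276, Nectin2 and Tnfsf9, whose groups do not overlap, the sign could not turn. Cd274 runs from -0.61 to 0.99 and Lgals9 from -0.54 to 0.26.

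The receptors of these ligands mostly gave dim signals. Of 9 measured receptor genes, 6 were higher and 3 lower in nTKO cells, 0 passed the limma test over all probe sets and 0 had an unadjusted p under 0.05. On every array, 7 of the 9 were within the dim range. Pdcd1, which encodes PD-1, measured 2.81 and 2.69 in nTKO cells, against 2.68, 2.71 and 2.76 in nDKO cells. Cd226, which encodes DNAM-1, had the smallest p of the list, at 3.26 and 3.0 in nTKO cells, against 2.74, 2.80 and 3.0 in nDKO cells (log2 fold change 0.28, limma adjusted p = 0.799). Havcr2, which encodes TIM-3, differed by -0.30 and Tnfrsf9, which encodes 4-1BB, by 0.082.

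Other ligands of checkpoint and co-stimulatory receptors were split as well, 8 higher and 11 lower of 22 measured, with a median log2 fold change of -0.0017, beside 0.028 over the brightest probe sets of all genes. None passed over all probe sets by limma, and 1 had an unadjusted p under 0.05. That gene was Lgals3, which encodes galectin-3, a ligand of LAG-3, at 12.73 and 12.58 in nTKO cells, against 12.91, 12.97 and 12.85 in nDKO cells (a difference of -0.26, SE 0.075, limma adjusted p = 0.799). Both nTKO values were below every nDKO value, which held for 4 of the 22, against 5.17% of all probe sets. Another of them, chosen after its values were seen, was Nectin4, a nectin bound by TIGIT, at 7.63 and 7.32 in nTKO cells, against 8.08, 7.65 and 7.65 in nDKO cells. Fgl1, another ligand of LAG-3, was high on 1 array, at 5.28 in nTKO 1 and 6.39 in nTKO 2, against 5.18, 5.01 and 5.28 in nDKO cells. Tnfrsf14, which encodes the BTLA ligand HVEM (-0.40), and Cd200 (-0.24) were the other 2 below every nDKO value, at dim signals.

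Regulators of Cd274 were mostly bright, with 20 of 21 above the dim range on every array and Socs1 within it, at 4.14 to 4.49, and none was called. Of the 21, 10 were higher and 11 lower, with a median of -0.01, and 0 had an unadjusted p under 0.05. Cmtm6, which encodes a membrane protein that keeps PD-L1 from lysosomal breakdown, was higher in both nTKO mice, at 8.85 and 8.95 in nTKO cells, against 8.59, 8.67 and 8.79 in nDKO cells (a difference of 0.22, SE 0.086, limma adjusted p = 0.799). Both nTKO values were above every nDKO value for 2 of the 21, Cmtm6 and Nfkbia, against 7.02% of all probe sets. Irf2 differed by 0.35, which was 0.053 without nTKO 1, Stat3 by 0.12 and Jun by -0.28. Irf1, the main interferon-gamma factor at this gene, measured 10.12 and 10.16 in nTKO cells, against 9.81, 10.12 and 10.19 in nDKO cells.

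Genes induced by interferon-gamma were higher in nTKO cells for 15 of 17, where 56.0% of all probe sets were, with the lowest array median in nDKO 1. Their array medians were 8.96 and 8.84 in nTKO cells, against 8.04, 8.85 and 9.07 in nDKO cells, and the median log2 fold change of 0.28 was -0.04 without nDKO 1. By limma, 0 passed over all probe sets and 0 had an unadjusted p under 0.05. Gbp6, a guanylate-binding protein, measured 8.0 and 8.26 in nTKO cells, against 5.85, 7.47 and 7.87 in nDKO cells (log2 fold change 1.07, SE 0.68), and it was 0.46 without nDKO 1. The chemokine Cxcl11 was high on the array on which Cd274 was high, at 8.57 in nTKO 1 and 6.65 in nTKO 2, against 5.51, 6.59 and 6.65 in nDKO cells. Most of the list did not peak there: of the 17, 3 were highest in nTKO 1 (Cxcl11, Gbp2 and Gbp3), 1 in nTKO 2, 5 in nDKO 2 and 8 in nDKO 3. Cxcl10 (0.34) and Gbp3 (0.38) were lowest in nDKO 1. Cd274 measured 5.95 in nDKO 1, its next to lowest value, at the limit of the dim range.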

How the data were processed

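Tumour cells of 5 mice were measured on 1 single-channel array each. The authors deposited a log2 signal for each probe set on each array, obtained in the Transcriptome Analysis Console by RMA, per the submitters' processing notes (the sources used here give no versions). RMA corrects background, quantile-normalizes and summarises probes, which hides any shift of most genes together and crowds dim signals near a floor. The table held 45037 probe sets, of which 34945 had 1 symbol in the platform annotation, 932 several and 9160 none, and it held 0 control probe sets.

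The 2 nTKO arrays were set against the 3 nDKO arrays in limma 3.58.1 under R 4.3.3 (lmFit, eBayes with an intensity trend, no covariate, no filter, two-sided, Benjamini-Hochberg over all probe sets, threshold 0.05). The fit had 3 residual degrees of freedom and 1.18 from the prior. It was tested on simulated data. The number of arrays limits the precision, and p-values measure the spread between these mice. For gene lists, the brightest probe set per gene was used, and ligands were left out of the lists. Members, lists and rules were chosen with earlier results of these data known. Named beside the ligands are the targeted genes measured, a few fixed genes, up to 4 genes per list with the smallest p, and, for a ligand spanning at least 1 log2 unit, its 5 nearest genes. Genes such as Cd3e, Hoxb13, Pbsn and Tap1 were added after their values were seen. Sequences come from RefSeq on GRCm38.p6, where 7 of 10 ligands had a promoter. Some genes are not reported here.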

Additional observations from a re-analysis of the deposited data

How the results depend on the processing

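With each alternative run, 0 ligand probe sets and 0 probe sets of the whole table had a limma adjusted p under 0.05. At an unadjusted p under 0.05, 1 ligand probe set became 2 after quantile normalization (3.56% of the table) and after median centring (3.61%). The count became 0 with 1 probe set per gene (3.79% of those kept) and 5 with log2 age as a covariate (9.08% of the table). It was 3 without nDKO 1 (4.68%), 0 without nDKO 2 (2.60%) and 1 without nDKO 3 (3.13%). Such counts are not given for settings that left nTKO with 1 array. The 4 ligand probe sets whose groups did not overlap became 15 without both nDKO 1 and nTKO 1, where 54.0% of the table did not overlap. With 1 array left out they became 12 without nTKO 1 (39.5% of the table), 11 without nTKO 2 (50.0%) and 7 without nDKO 1 (23.6%). They stayed 4 without nDKO 2 (17.4%) and without nDKO 3 (19.4%). Cd276, the first probe set of Nectin2 (1417703_at), Tnfsf9, Vtcn1, Pvr 1423903_at and Pvr 1450295_s_at kept their sign in every alternative. For the 4 whose groups did not overlap, leaving out arrays could not turn the sign. Settings that change only the variance model or the probe sets kept leave the log2 fold change as it was.

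The sign of the log2 fold change turned for others, and the cause was not tested. With log2 age as a covariate it was -0.52 for Cd274, -0.24 for Pdcd1lg2, -0.15 and -0.058 for Cd80 (1454372_at and 1432826_a_at), -0.051 and -0.013 for Cd86 (1420404_at and 1449858_at), 0.47, 0.11 and 0.056 for Pvr (1423904_a_at, 1423905_at and 1445149_at), 1.01 for Lgals9, -0.18 for Itgax, -0.015 for Pdcd1 and -0.85 for Ptprc. Without both nDKO 1 and nTKO 1 it was -0.82 for Cd274, -0.25 for Pdcd1lg2, 0.12 for Pvr 1423904_a_at, -0.005 for Epcam, -0.155 for Itgax, -0.045 for Pdcd1, -0.73 for Ptprc, -0.045 for Gbp3 and -0.02 for Tnfrsf9. Quantile normalization gave -0.0077 for Cd80 1432826_a_at. Setting nTKO 2 alone against nDKO 1, which were of like age, gives no test, and the differences were -0.21 for Cd274, -0.15 for Pdcd1lg2 and 1.18 for Lgals9.

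The replicate number as a block gave 2 ligand probe sets at an unadjusted p under 0.05 (5.09% of the table) and 0 adjusted. It turned the sign of Cd80 (1454372_at at -0.02 and 1432826_a_at at -0.01), Pvr 1445149_at (0.04) and Lgals9 (0.14). Deviations of same-numbered arrays correlated at 0.377 and 0.311 over probe sets. The deviations of the 2 nTKO arrays mirror each other, so the crossed pairs gave -0.311 (nTKO 1 with nDKO 2) and -0.377 (nTKO 2 with nDKO 1). The 2 positive values are therefore not separate readings. With 2 pairs and mice numbered within each genotype, the samples share only a number.

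With 1 array left out, the log2 fold change ran from -0.61 to 0.99 for Cd274, from -0.22 to 0.39 for Pdcd1lg2, from -0.025 to 0.01 for Cd80 1451950_a_at, from -0.04 to 0.12 for 1454372_at and from -0.01 to 0.055 for 1432826_a_at. It ran from -0.11 to 0.21 for Nectin2 1424456_at, from -0.54 to 0.26 for Lgals9, and for Pvr from -0.073 to 0.26 (1451160_s_at), -0.59 to 0.22 (1423904_a_at), -0.05 to 0.04 (1445149_at) and -0.073 to 0.14 (1429848_at). For the other genes it ran from -0.09 to 0.18 for Epcam, -0.015 to 0.175 for Irf1, -0.12 to 0.80 for Itgax, -0.027 to 0.093 for Pdcd1, -0.68 to 1.29 for Ptprc, -0.037 to 0.57 for Smad4 and -0.64 to 0.037 for Havcr2. A genotype then left with 1 array is assumed to vary like the other. Age and genotype are partly confounded, and the signals have no measure of detection.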
